A study of Mus musculus with 12 samples.

Results

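The Ikaros family loci are 4 windows of the mouse genome (mm9) around Ikzf1 (Ikaros), Ikzf2 (Helios), Ikzf3 (Aiolos) and Ikzf4 (Eos), in which binding of FoxP3 was mapped by chromatin immunoprecipitation and sequencing (ChIP-seq). A peak belonged to a locus when its summit lay on chromosome 11 from 11550000 to 11700000 (Ikzf1), chromosome 1 from 69500000 to 69800000 (Ikzf2), chromosome 11 from 98300000 to 98450000 (Ikzf3) or chromosome 10 from 128040000 to 128110000 (Ikzf4). Peaks of different libraries that overlapped were joined into regions, which gave 92 regions in the 4 windows among 24765 in the genome. The Treg cells were CD4+hCD2+ cells sorted magnetically from lymph nodes and spleen of C57BL/6J mice. One group came from FoxP3WT:hCD2 mice (WT), and the other from FoxP3A384T:hCD2 mice (A384T), whose FoxP3 carries the substitution A384T, so both groups share the human CD2 reporter. No age or treatment is given, other than that the cells were freshly isolated. The antibody was an affinity purified rabbit polyclonal against FoxP3. Each genotype had 3 ChIP libraries with a peak list of its own, and the 6 input libraries enter no comparison. Separate animals are not stated for the replicates, so the spread behind each p-value may be technical. Peak lists hold no expression, so the cell type could not be checked against its markers.

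FoxP3 is the forkhead transcription factor that defines regulatory T (Treg) cells. The Ikaros family are zinc finger transcription factors of lymphocytes that bind DNA through N-terminal zinc fingers and form homodimers and heterodimers through C-terminal ones. Ikaros, the founding member, is required for lymphocyte development. Helios is expressed in most thymus-derived Treg cells and helps keep their phenotype stable. Aiolos is best known from B cells and from subsets of effector T cells. Eos binds FoxP3 and takes part in gene silencing by FoxP3 in Treg cells.

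Every library had FoxP3 peaks in all 4 windows. Their number was 88, 10 and 23 for WT replicates 1, 2 and 3, and it was 49, 36 and 10 for the A384T libraries, where values stand in replicate order throughout. The whole lists held 20723, 1746 and 3905 peaks for WT and 18147, 6657 and 2050 for A384T, from 17520951 to 25386770 ChIP tags after removal of duplicates. The windows thus took 4.25, 5.73 and 5.89 of every 1000 peaks in WT and 2.70, 5.41 and 4.88 in A384T. A384T replicate 1 gave the lowest share, and the other 2 A384T libraries lay between WT replicates 1 and 2. Tags were 51 bp long in both replicate 1 libraries and 49 bp in the rest. Absence from a list means no peak past the authors' q-value cutoff of 1e-10, and binding below that cutoff cannot be seen in these lists.

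Binding was dense in the Ikzf1, Ikzf2 and Ikzf3 windows. The Ikzf2 window held 48 regions over 300 kb, Ikzf3 held 22 and Ikzf1 18 over 150 kb each, and Ikzf4 held 4 over 70 kb. When the genome was cut into adjacent tiles of the same width, 21 of 8777 tiles (0.239%) held as many regions as the Ikzf2 window. As many as in the Ikzf3 window were held by 71 of 17565 tiles (0.404%), and as many as in the Ikzf1 window by 117 of them (0.666%). For Ikzf4 the share was 1860 of 37649 tiles (4.94%). Single libraries supplied many of these regions. Without WT replicate 1 the Ikzf2 window held 22 regions, Ikzf3 17 and Ikzf1 12, and as many were held by 39 (0.444%), 38 (0.216%) and 125 (0.712%) of the tiles. Ikzf4 kept 4 regions then, but held 2 without A384T replicate 1, as did 11.2% of the tiles. These shares describe where the windows stand among tiles, many of which hold no gene or no region at all.

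**Figure D1:**
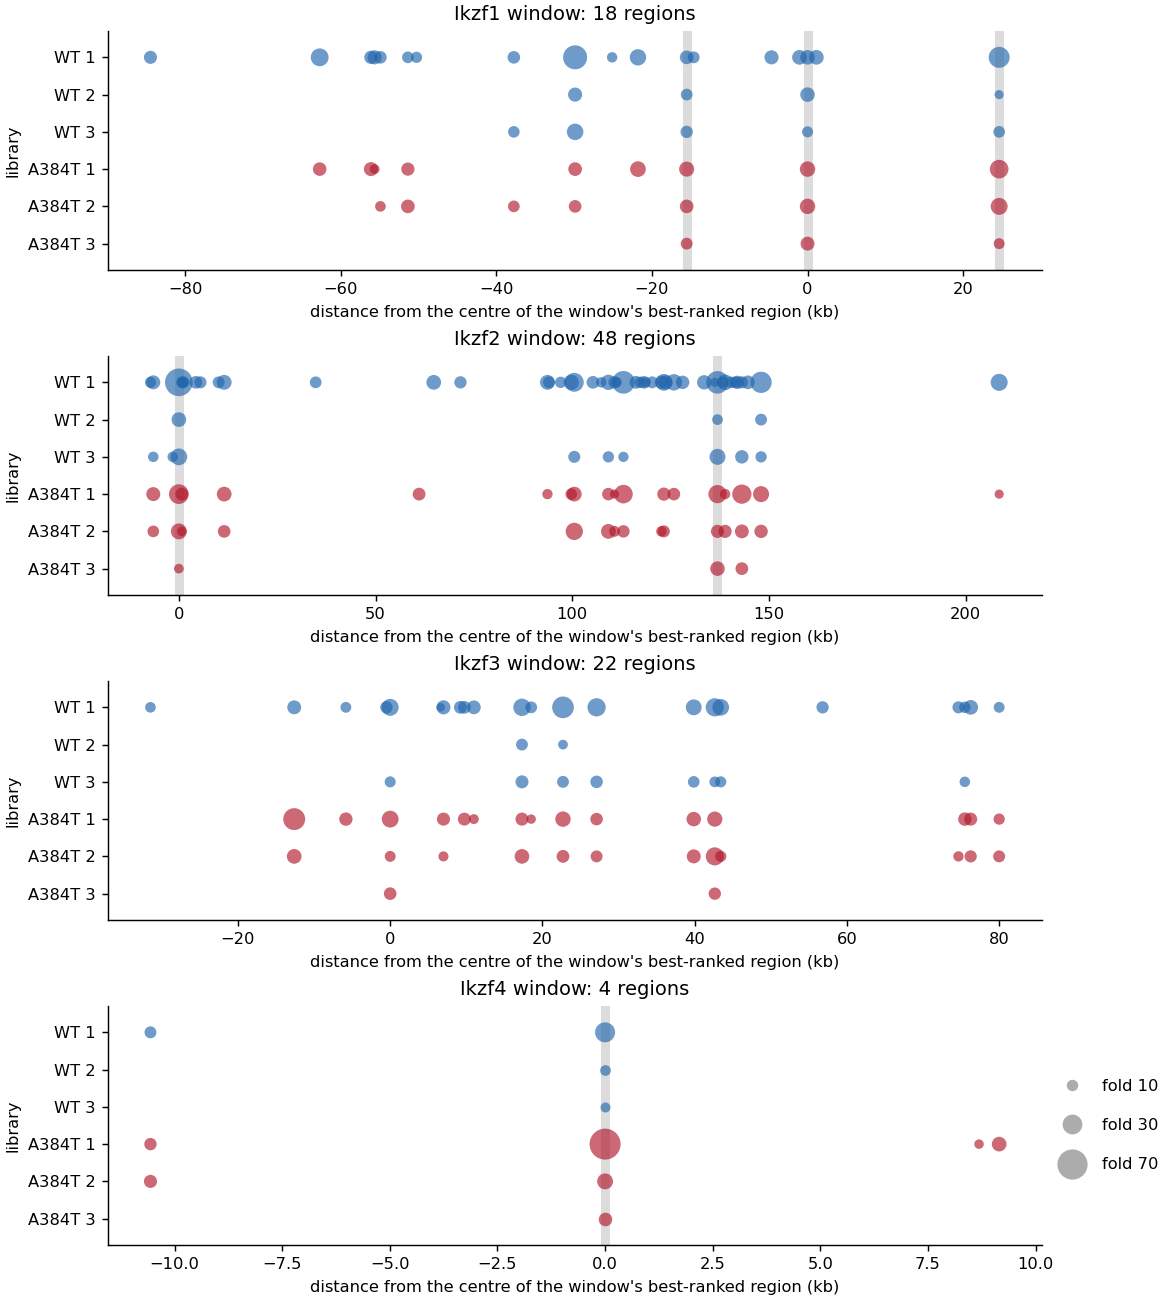
FoxP3 peaks in the 4 Ikaros family windows. Each row is a library (WT blue, A384T red), the horizontal axis gives the distance in kb from the centre of the window's best-ranked region, each point is a region with a peak in that library, its area shows the authors' fold enrichment, and grey bars mark regions with a peak in all 6 libraries. Points thin out in the rows of the short lists, and the 6 grey bars lie in the Ikzf1 (3), Ikzf2 (2) and Ikzf4 (1) windows.

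A core of 6 regions had a peak in all 6 libraries: 3 at Ikzf1, 2 at Ikzf2, 1 at Ikzf4 and none at Ikzf3. That is 6.52% of the 92, where 3.88% of all regions in the genome had a peak in every library. A further 7 regions were found in 5 libraries, of which 4 lay at Ikzf3. Of these 7, A384T replicate 3 was the library without a peak for 4 and WT replicate 2 for 3, and these are the 2 shortest lists. In all, 13 of the 92 had a peak in at least 5 libraries, beside 7.89% over the genome. In lists cut to the length of the shortest, 2 regions had a peak in all 6 libraries, the third of Ikzf1 by position and the first of Ikzf2. The windows held 16 regions in those lists, so this is 12.5% of them, beside 13.4% over the genome.

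No region of the 4 windows was recurrent in one genotype only. Regions with a peak in at least 2 WT libraries and in no A384T library numbered 0 of 92 (0.872% of all regions), and the reverse class also numbered 0 of 92 (0.763% of all regions). With shares this low over the genome, 0 of 92 does not set the windows apart from the background. Both genotypes had a peak in 48 of the 92 regions (52.2%, beside 56.0% over the genome). These zeros depended on single libraries. Without WT replicate 1, which had the longest list, 11 of 55 regions (20%) were recurrent in A384T only, a class that then held 16.5% of all regions. Without A384T replicate 1 there was 1 region of 89 (1.12%) recurrent in WT only, on chromosome 11 from 98406961 to 98407543 at Ikzf3, and the class held 3.03% of all regions. Without A384T replicate 2 there were 2 of 92 (2.17%), at Ikzf1 from 11603859 to 11604187 and at Ikzf3 from 98374957 to 98375428, and the class held 1.23% of all regions.

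Most regions seen in a single library came from WT replicate 1. This library alone had a peak in 40 of the 92 regions (43.5%, beside 25.6% over the genome), and A384T replicate 1 alone in 3 (3.26%, beside 16.2%). WT replicate 3 was the only library at 1 region. At Ikzf2, 28 of 48 regions were found only in WT replicate 1. Their fold enrichment there had a median of 10.9 (6.18 to 16.6), where the other Ikzf2 regions of that library had a median of 18.3. The Ikzf3 window had 5 such regions, with folds of 5.55 to 12.6, and the Ikzf1 window had 7, with folds of 8.37 to 16.5.

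**Figure D2:**
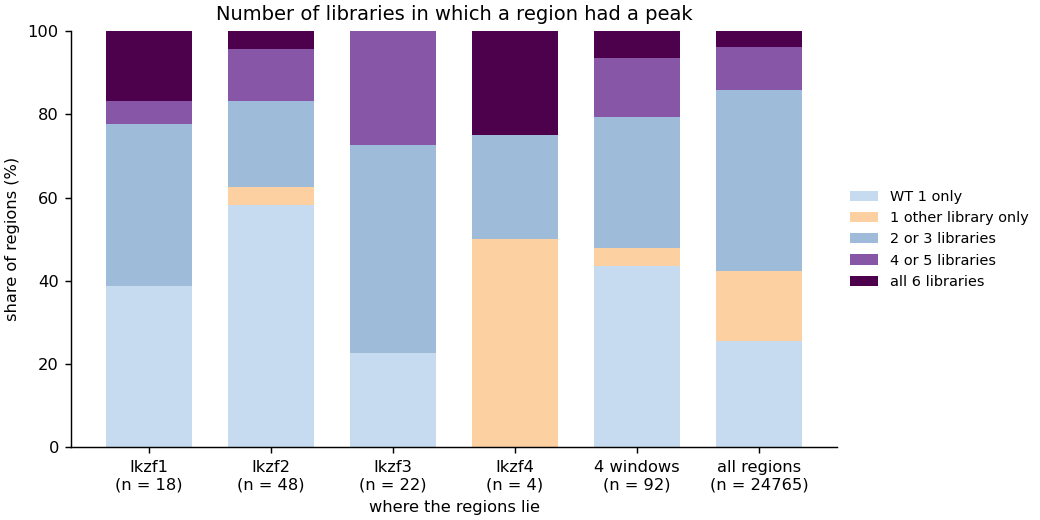
Share of regions by the number of libraries that had a peak, for each window, the 4 windows together and all regions of the genome (vertical axis in percent, number of regions under each bar). WT replicate 1 alone accounts for 43.5% of the Ikaros family regions and 25.6% of all regions, and the Ikzf3 bar has no part for all 6 libraries.

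The number of peaks per window did not separate the genotypes. To set lists of unequal length side by side, each was reduced to its 1746 strongest peaks by -log10 q, the length of the shortest list. At Ikzf1 the WT lists then held 2, 4 and 3 peaks and the A384T lists 1, 3 and 3. At Ikzf2 the counts were 4, 3 and 4 in WT and 2, 4 and 4 in A384T. The ranges overlapped at both loci, with 3 ± 1 against 2.33 ± 1.15 peaks at Ikzf1 (SD, n = 3 each; two-sided exact permutation test, p = 0.7) and 3.67 ± 0.577 against 3.33 ± 1.15 at Ikzf2 (SD, n = 3 each; exact p = 1). At Ikzf3 WT had 3, 2 and 1 peaks and A384T 1, 2 and 2 (exact permutation p = 1). At Ikzf4 WT had 1, 1 and 0 and A384T 1 in each library (exact permutation p = 1). With 3 against 3 libraries the smallest p this test allows is 0.1, and counts this small leave little room for a difference. Over all windows the lists of equal length held 10, 10 and 8 peaks in WT and 5, 10 and 10 in A384T. Within the 49 bp libraries the means were 9 in WT and 10 in A384T, and the 51 bp libraries gave 1 value each, 10 and 5.

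**Figure D3:**
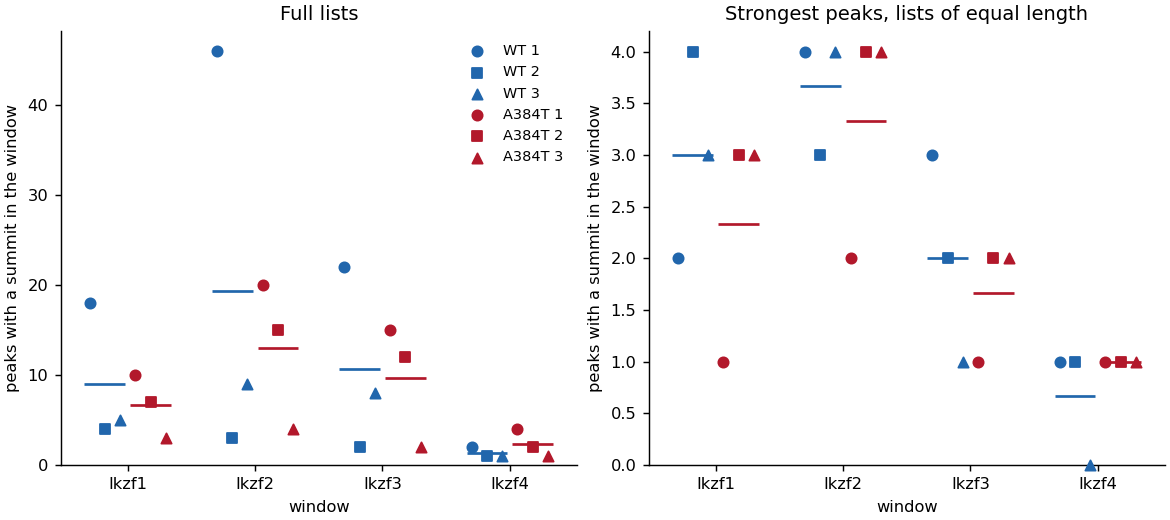
Peaks with a summit in each window (vertical axis) in the full lists on the left and in lists of the 1746 strongest peaks on the right, for each library (WT blue, A384T red, marker by replicate), with the group mean as a line. In the full lists WT replicate 1 stands highest at Ikzf1, Ikzf2 and Ikzf3; in lists of equal length every library has 0 to 4 peaks per window.

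In the full lists the long WT replicate 1 list had more peaks than the long A384T replicate 1 list at 3 of the 4 loci. The counts were 18 and 10 at Ikzf1, 46 and 20 at Ikzf2, and 22 and 15 at Ikzf3, while at Ikzf4 they were 2 and 4. Cutting the WT list to the 18147 peaks of the A384T list left 18, 39, 21 and 2. The ratio of 2.3 at Ikzf2 was reached or passed by 35 of the 121 tiles of 300 kb (28.9%) in which either library had at least 20 peaks, and the median ratio over those tiles was 1.85. At Ikzf1 the ratio was 1.8, which 69.6% of the 79 such tiles of 150 kb reached, and at Ikzf3 it was 1.47, which 84.8% reached. The median over those tiles was 2.3, above the ratio at both loci. With 18 and 10 peaks the Ikzf1 window would itself fall short of the 20 peaks required of these tiles. Its place among them is therefore not a like comparison. This sets 1 library against 1 library and has no replicate check. Replicate 3 had the same order at these 3 loci, with 5 and 3 peaks in WT and A384T at Ikzf1, 9 and 4 at Ikzf2, and 8 and 2 at Ikzf3. Replicate 2 had the opposite order, with 4 and 7, 3 and 15, and 2 and 12. The WT list was the longer in replicates 1 and 3 and the shorter in replicate 2, the same order as the counts. In replicate 1 WT still had more peaks at these 3 loci after its list was cut to the A384T length. In lists of 1746 peaks replicate 1 had 2 and 1, 4 and 2, and 3 and 1 peaks in WT and A384T. Replicate 2 had 4 and 3, 3 and 4, and 2 and 2 there, and replicate 3 had 3 and 3, 4 and 4, and 1 and 2. Whether list length accounts for the order was not tested.

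At Ikzf4 (Eos) the strongest region ranked higher in every A384T library than in any WT library, among the regions shared by all 6 libraries. It lay on chromosome 10 from 128074035 to 128074548, and the summits of the 6 libraries fell within 63 bp. The authors' fold enrichment over control was 30.7, 8.82 and 7.64 in the WT libraries. In the A384T libraries it was 73.8, 19.4 and 14.1. The folds of the genotypes overlapped, since WT replicate 1 exceeded A384T replicates 2 and 3, but each A384T library was above the WT library with the same replicate number, by 2.40, 2.20 and 1.85 times. In its own list this region was the 5th strongest peak of A384T replicate 1 by -log10 q, the 161st of replicate 2 and the 173rd of replicate 3. In WT it stood 323rd, 774th and 2105th. These ranks are out of 20723, 1746 and 3905 peaks in WT and 18147, 6657 and 2050 in A384T, so they are not on one scale. Fold and q-value describe a peak within its list and are not a level shared between libraries.

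For a scale the lists have in common, peaks were ranked by -log10 q inside the 962 regions that all 6 libraries shared. On this scale, where 100 is the strongest, the Ikzf4 region was at the 70.3, 37.2 and 8.73 percentile in WT. Its percentiles in A384T were 99.7, 85.3 and 85.8. The ranges did not overlap. WT averaged 38.7 ± 30.8 and A384T 90.2 ± 8.18 (SD, n = 3 each), so A384T lay 51.5 points higher (exact permutation test, two-sided, p = 0.1, which is the smallest possible; 0.403 after Benjamini-Hochberg adjustment over the 962 regions). Of the 962, 17 had a difference at least as large in this direction, this region included. Ranked by fold enrichment the WT percentiles were 44.6, 22.6 and 5.51 and the A384T percentiles 99.3, 47.9 and 72.2, again without overlap.

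At Ikzf2 (Helios) the order was the other way. The best-ranked region of this window lay on chromosome 1 from 69590597 to 69591251, with folds of 58.6, 16.5 and 21.5 for WT and of 29.8, 19.5 and 7.22 for A384T. It was the 272nd, 341st and 438th peak of the WT lists and the 1439th, 869th and 1500th of the A384T lists, whose unequal lengths are given above. Inside the shared set its percentiles were 74.3, 67.7 and 61.0 in WT and 41.7, 39.0 and 17.2 in A384T. Every WT value lay above every A384T value, with means of 67.7 ± 6.63 and 32.6 ± 13.5 (SD, n = 3 each), which differ by -35.0 points (two-sided exact permutation p = 0.1, adjusted p = 0.403 over the 962 regions). Without A384T replicate 3 the difference was -19.7 points. As large a difference in this direction was found for 44 of the 962 regions. By fold enrichment the ranks were also apart, WT averaging 82.5 ± 9.57 and A384T 38.5 ± 25.7 (SD, n = 3 each).

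**Figure D4:**
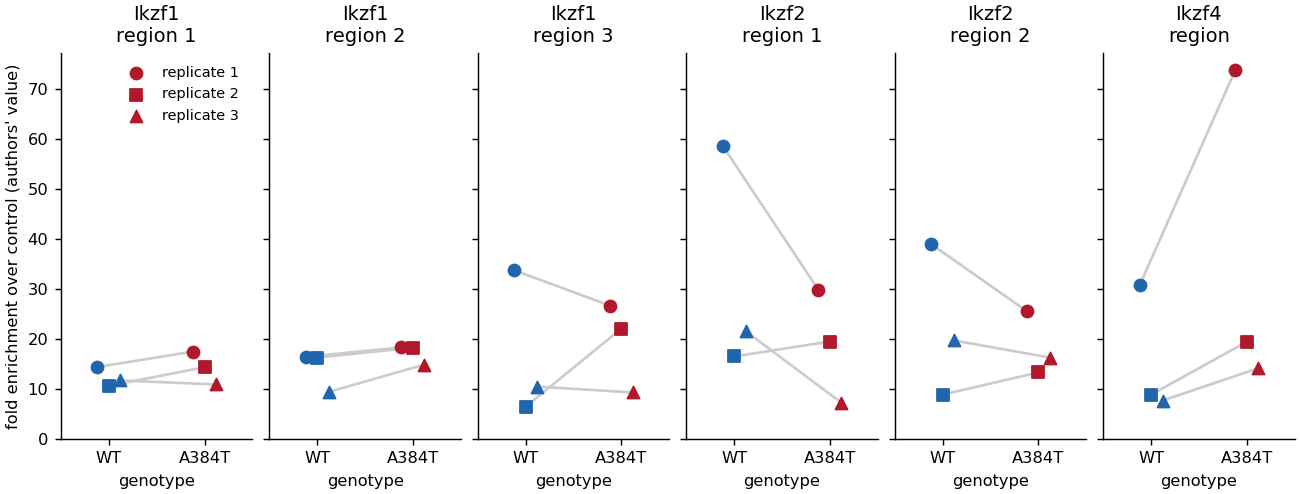
Fold enrichment over control (the authors' value, vertical axis) of the 6 Ikaros family regions with a peak in all libraries, by genotype, with lines joining libraries of the same replicate number and regions numbered by position. At the Ikzf4 region all 3 lines rise from WT to A384T, and at the first Ikzf2 region they fall in replicates 1 and 3 and rise in replicate 2.

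The second shared Ikzf2 region, on chromosome 1 from 69727588 to 69728126, had ranks that overlapped. Its folds were 39.0, 8.82 and 19.7 in WT and 25.5, 13.3 and 16.3 in A384T, and its percentiles in the shared set were 43.3 ± 14.6 and 36.6 ± 25.4 (SD, n = 3 each; two-sided exact permutation p = 0.8).

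Of the 3 shared regions at Ikzf1 (Ikaros), 1 had ranks that did not overlap. This region, on chromosome 11 from 11666151 to 11666659, was at the 21.8, 0.208 and 19.2 percentile in WT and the 44.3, 29.1 and 36.2 percentile in A384T. The A384T values lay higher by 22.8 points (13.7 ± 11.8 and 36.5 ± 7.59, SD, n = 3 each; two-sided exact permutation p = 0.1, adjusted p = 0.403 over the 962 regions). Without WT replicate 2, in whose list this region was the 1743rd of 1746 peaks, the difference was 11.0 points. Its folds showed no such order. They were 33.7, 6.41 and 10.4 in WT and 26.7, 22.1 and 9.26 in A384T, higher in A384T for replicate 2 only, and the ranks by fold overlapped. The best-ranked Ikzf1 region lay on chromosome 11 from 11641575 to 11641972. It had folds of 16.4, 16.3 and 9.37 in WT and 18.3, 18.2 and 14.8 in A384T, higher in A384T at each replicate number, but its percentiles in the shared set overlapped (28.9 ± 33.0 and 37.3 ± 20.5, SD, n = 3 each; exact permutation p = 0.6). The remaining shared region, on chromosome 11 from 11625664 to 11626814, was 1151 bp wide after joining, and its percentiles overlapped, with WT at 20.1 ± 12.2 and A384T at 25.3 ± 17.0 (SD, n = 3 each; exact permutation p = 0.7).

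**Figure D5:**
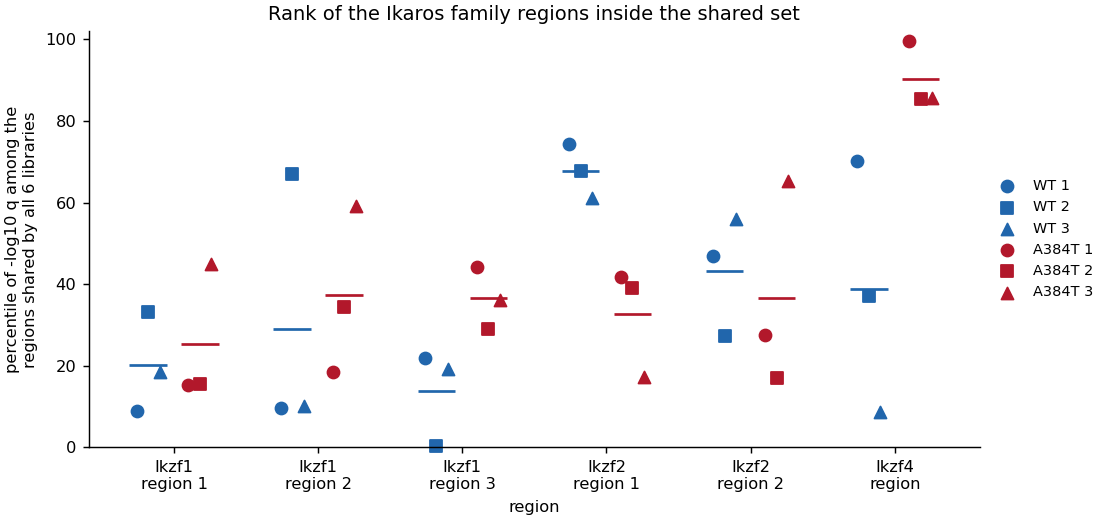
Percentile of -log10 q (vertical axis) of the 6 Ikaros family regions among the 962 regions shared by all libraries, for each library (WT blue, A384T red, marker by replicate), with the group mean as a line. The A384T points lie above all WT points at the third Ikzf1 region and at the Ikzf4 region, and below them at the first Ikzf2 region.

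Ranks were therefore apart for 3 of the 6 shared regions of the family, 2 higher in A384T and 1 higher in WT. Over all 962 shared regions 24.8% had ranks apart, 11.5% with A384T higher and 13.3% with WT higher. A count of 3 among 6 is too small to set the family apart from this background. Ranked by fold, 2 of the 6 remained apart, the Ikzf4 region and the first Ikzf2 region, where 16.0% of the 962 were apart.

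The 2 shortest lists, WT replicate 2 and A384T replicate 3, limited the shared set. Without them 2868 regions were shared by the other 4 libraries, 19 of them in the windows, a set chosen after seeing the data. With 2 libraries against 2, ranks were apart for 12 of the 19 (63.2%), 6 higher in WT and 6 in A384T, beside 40.0% of the 2868, and no test was made. The 3 regions described above as apart stayed apart in the same direction, the Ikzf4 region at 88.9 and 35.0 in WT and 99.9 and 94.8 in A384T. These 4 libraries are among the 6 on which those regions were found apart, so they could hardly do otherwise. This is no separate check. A further 2 of the regions shared by all 6 libraries came apart. The second Ikzf2 region stood at 76.6 and 83.0 in WT and at 59.8 and 56.3 in A384T, and the best-ranked Ikzf1 region at 39.3 and 39.0 in WT and at 51.4 and 71.4 in A384T.

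The regions found in 5 libraries had no rank among the 962. Their folds and their percentiles among the 2868 are given, the latter for replicates 1 and 3 of WT and 1 and 2 of A384T; they, and the region at 98318941 below, were chosen for naming after their values were seen. At Ikzf1 the region on chromosome 11 from 11611681 to 11612119 had folds of 44.2, 15.3 and 20.9 in WT and of 14.3 and 12.3 in A384T replicates 1 and 2, with no peak in A384T replicate 3. All 3 WT folds lay above both A384T folds. Its percentiles were 83.9 and 82.6 in WT and 38.5 and 49.9 in A384T, so its ranks were apart as well. In lists of 1746 peaks this region was present in all WT libraries and in no A384T library, as was the Ikzf3 region from 98348706 to 98349475. Some ranks lay near that cut. The Ikzf1 region was 4392nd and 1932nd in A384T replicates 1 and 2. The Ikzf3 region was 1673rd in WT replicate 1, and 6540th and 1912th in A384T replicates 1 and 2. Of the 16 regions the windows held in equal lists, 4 (25.0%) were recurrent in WT only and 1 (6.25%) in A384T only, where those classes held 9.08% and 9.62% of all 3744 regions. These classes depend on the cut, since in the full lists no region of the windows was recurrent in one genotype only.

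Ikzf3 (Aiolos) had many regions and no fully shared one. Its best-ranked region, on chromosome 11 from 98331537 to 98332025, had folds of 22.1 and 9.37 in WT replicates 1 and 3, none in WT replicate 2, and 21.7, 9.20 and 12.2 in A384T. The region from 98374235 to 98374589 also lacked a peak in WT replicate 2 only, with folds of 25.4 and 8.91 in WT and 17.8, 25.1 and 11.7 in A384T. The regions from 98348706 to 98349475 and from 98354252 to 98354699 lacked one in A384T replicate 3 only. Their folds in WT were 23.3, 10.8 and 13.0, and 36.0, 7.29 and 10.9. In A384T replicates 1 and 2 they were 13.1 and 16.4, and 18.2 and 12.6. By percentile among the 2868, the first of these 4 Ikzf3 regions was at 37.9 and 39.0 in WT and 56.7 and 39.9 in A384T, higher in A384T. The second overlapped, at 59.4 and 21.2 against 40.3 and 75.1. The third was at 50.8 and 52.3 against 25.7 and 50.1, and the fourth at 62.2 and 42.0 against 33.5 and 40.0, both higher in WT by small margins. The region from 98318941 to 98319412, near the lower end of the window, was the 389th peak of A384T replicate 1 at a fold of 36.9 and the 3559th of WT replicate 1 at a fold of 14.8. It also had a peak in A384T replicate 2, at a fold of 16.6, and was the A384T-only region of the equal lists.

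At Ikzf2 the 2 regions found in 5 libraries lay 3.91 kb apart. The region from 69738531 to 69739348 had folds of 34.5, 10.8 and 9.81 in WT and 19.7 and 13.7 in A384T replicates 1 and 2. The region from 69733479 to 69734622 had folds of 11.1 and 13.8 for WT replicates 1 and 3 and 28.4, 14.8 and 12.4 in A384T. The latter joined peaks whose summits spread over 513 bp. Its percentiles were 11.8 and 47.8 in WT and 85.9 and 55.2 in A384T, without overlap, while those of the former overlapped, at 54.1 and 30.3 against 30.6 and 47.0.

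Regions of Ikzf2 with a peak in at least 2 libraries fell into separate stretches, each starting and ending at such a region. From 69584233 to 69602801, over 18.6 kb, there were 10 regions in all, of which 4 had a peak in at least 2 libraries. From 69684500 to 69739348, over 54.8 kb, there were 32 in all, of which 13 had a peak in at least 2 libraries. The region from 69799290 to 69799631 lay apart from these stretches, with a peak in WT replicate 1 and A384T replicate 1 only. The first stretch held the best-ranked region and the second the other shared one. The 81.7 kb between them held 4 regions, each with a peak in 1 library. In the second stretch WT replicates 1, 2 and 3 had peaks in 32, 2 and 6 regions and A384T replicates in 12, 10 and 2. At Ikzf1 neighbouring regions lay a median of 3.59 kb apart, at Ikzf3 3.74 kb and at Ikzf2 1.59 kb.

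The peaks of the windows were wider than those of their lists as a whole. The median width was 346, 232 and 239 bp in WT, where all peaks of those lists had medians of 261, 190 and 211 bp. In A384T it was 300, 235 and 198 bp, where all peaks had 264, 214 and 180 bp. The median was thus larger in 6 of 6 libraries, and this was not tested beyond that count. The median fold in the windows was above that of the list in WT replicate 1 (13.3 and 11.5) and in the A384T libraries (13.4 and 11.8, 12.9 and 11.6, 12.0 and 10.3), and below it in WT replicates 2 and 3 (10.7 and 11.0, 10.3 and 11.0).

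No mm9 genome or gene models were used here, so the regions could not be assigned to promoters, introns or flanks, and no sequence under a peak is given. In the order of protein-coding genes of another assembly, GRCm38.p6, Ikzf2 lies between Erbb4 and Spag16, Ikzf1 between 4930512M02Rik and Fignl1, Ikzf3 between Grb7 and Zpbp2, and Ikzf4 between Rps26 and Suox. Whether a region in a window lies in the named gene or in a neighbour was not tested.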

How the data were processed

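The values are the authors' deposited MACS2 peak lists of 6 FoxP3 ChIP libraries (fixation for 30 min in 1% formaldehyde, 4 µg of antibody, per the labels). Bowtie2, MACS2 and the build mm9 appear in the submitters' processing notes. Per the file headers, MACS 2.1.0.20140616 called peaks on each library against 1 control at a q-value cutoff of 1e-10, keeping 1 tag per position and strand and scaling the larger set towards the smaller. The deposited lists give each peak's pileup (a signal), its -log10 p-value and -log10 q-value, its fold enrichment (ChIP over local control, a ratio) and its width.

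Chromosomes 1 to 19, X and Y were used, and peaks sharing at least 1 bp were merged as a region. A library's value in a region is its strongest peak there. Genotypes were compared per window by the exact permutation test, which has 20 arrangements here. The members and lists were chosen with earlier results of these data known, so the planned adjustment over the 4 windows alone is not given. Named regions are those in all 6 libraries and the best-ranked of each window by mean percentile of -log10 q. The rule would also have named regions recurrent in one genotype only, of which there were none. The planned counts for partner genes and cell type markers were not analysed here.

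Same-numbered libraries deviated together, though weakly in replicate 2. Over the 962 shared regions the correlations of their rank deviations were 0.435, 0.123 and 0.374 for replicates 1, 2 and 3. Libraries with different numbers gave -0.354 to 0.019. Deviations within a genotype offset one another, so these values are pushed low wherever same-numbered libraries correlate. The contrast between the 2 kinds is therefore no separate evidence. Pairing of the libraries rests on this check alone. The exact permutation p-values of single regions above leave the pairing out, and with 3 pairs the smallest p would be 0.25. Joining and ranking were tested on simulated lists of similar length with large rank shifts. The simulated peaks lay farther apart than neighbouring regions typically do at Ikzf1, Ikzf2 and Ikzf3. The test therefore does not check the joining of close peaks or lists of unequal length. Alternatives were other list lengths, thresholds, joining rules and wider windows, and each library left out. Python 3.11.15, numpy 2.4.6, pandas 2.3.3, scipy 1.17.1 and matplotlib 3.10.9 were used.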

Additional observations from a re-analysis of the deposited data

How the results depend on the processing

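The value for each window is the difference in mean peaks in lists of equal length, A384T minus WT. Over 19 results 241 alternatives were run: 213 kept the direction (counts within 1.5 times), 16 moved the value and 12 turned its sign. Some of those that kept it could not do otherwise. The replicate block cannot change a mean difference, and a wider window cannot change the rank of a single region. Where the ranks of a region did not overlap, leaving out 1 library can hardly turn the sign of their difference. Leaving out both 51 bp libraries, ranking on the 4 longer lists, following single shared regions and leaving libraries out of the region counts were chosen after seeing the data. No window could pass the test with so few libraries, so a kept direction says nothing of stability.

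The difference over the 4 windows was -1. It was 0 with the 1000 strongest peaks, -2.33 with windows 50 kb wider on each side, 1 without both 51 bp libraries and -1.83 to 0.667 with single libraries left out. For Ikzf2 (-0.333) the last of these gave -0.667 to 0.333, leaving out both 51 bp libraries gave 0.5, and the wider window gave -1.67 (exact permutation p = 0.3). For Ikzf3 (-0.333) the value was 0.333 with 500 peaks, 0.667 with 1000, 0.5 without both 51 bp libraries and -0.833 to 0.167 with single libraries left out. Leaving out single libraries gave -1.17 to 0 for Ikzf1 (-0.667) and 0 to 0.5 for Ikzf4 (0.333). Signs turned or values reached 0 without A384T replicate 1 (all windows but Ikzf4), WT replicate 1 (Ikzf3) or WT replicate 3 (Ikzf4). The cause was not tested.

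With lists as long as the shortest, 2 regions were in all libraries, 4 were recurrent in WT only and 1 in A384T only. Without both 51 bp libraries 1 region was recurrent in A384T only, at Ikzf2. Leaving out single libraries gave 6 to 10 regions in all remaining libraries (10 without A384T replicate 3), 0 to 2 in WT only, 0 to 11 in A384T only and 3 to 5 with ranks apart (5 without WT replicate 2), and the 4 longer lists gave 12 of 19. With single libraries left out, regions per window ranged from 12 to 18 at Ikzf1, 22 to 48 at Ikzf2, 17 to 22 at Ikzf3 and 2 to 4 at Ikzf4. In these runs fewer libraries have to hold a peak.

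With single libraries left out, the rank difference of the first Ikzf1 region by position (5.16) ranged from -0.562 (without WT replicate 1) to 10.1. That of the second (8.42) ranged from -1.31 (without WT replicate 3; -1.30 without WT replicate 1) to 24.9, and that of the second Ikzf2 region (-6.77) from -19.4 to 3.12 (without A384T replicate 2). At the Ikzf4 region the percentiles of the genotypes did not overlap, so leaving out 1 library could hardly turn the sign. The Ikzf4 difference of 51.5 stayed between 36.0 and 67.2 in the same runs. On the 4 longer lists it was 35.3, that of the third Ikzf1 region 14.7 and that of the first Ikzf2 region -15.7. With the replicate block the Ikzf4 difference was the same 51.5, since the block cannot change it. The exact permutation p was then 0.25, the smallest that 3 pairs allow.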
